A study of Microtus ochrogaster with 34 samples.

Results

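Testes of winter-trapped males of the fossorial water vole *Arvicola terrestris scherman* (*ATS*) were compared between 5 males that maintained spermatogenesis (W+) and 11 males that did not (W-). These 16 libraries, which the study describes as 16 animals, were chosen from the 34 of the study by their sample labels, and the other 18 come from summer (S) males. The labels name the organism as *Microtus ochrogaster*, the species of the reference genome, while the study describes the animals as *ATS*. All were wild males of reproductive weight with the genotype label WT, trapped in January or February for the winter groups and in July or August for S, and housed under the same conditions after capture. The labels give neither an age nor a treatment. W+ stood for a testis with complete spermatogenesis in histological sections, whereas W- merged testes with empty seminiferous tubules and testes in an intermediate state. The labels do not say which W- library belongs to which of these states, nor do they give the trapping site, the date or a sequencing batch of any library.

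In seasonal breeders the testis can regress outside the breeding season: the germ cell line in the seminiferous tubules is depleted, spermatids and spermatozoa disappear, and Sertoli, Leydig and other somatic cells come to make up more of the organ. Late germ cells, above all round and elongating spermatids, carry a large set of transcripts that few other cells make. In the RNA of a whole testis, fewer cells of a type and less RNA per cell cannot be told apart, which holds for every difference given here. Since all 16 males were trapped in winter, season was held constant and the state of the testis differed.

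The deposited values are RPKM for 23038 genes, that is, read counts divided by the exon length in kilobases and by a size of the library. The genes are named only by Ensembl identifiers of the prairie vole, *Microtus ochrogaster*, to whose genome (MicOch1) the reads were aligned, and the sources used here do not pair these identifiers with gene names or positions. The labels of the samples could therefore not be checked against germ cell or somatic markers, and no pathway is described. Every value of the 20821 genes above 0 in any library was a whole multiple of the value of 1 read (tolerance 0.02 of a read), so that reads could be recovered. Between 4960105 and 8576454 reads were counted on genes per W+ library and between 2938628 and 9653984 per W- library. The difference in means, 6.69e+06 ± 1.43e+06 (SD, n = 5) against 7.45e+06 ± 2.08e+06 reads (SD, n = 11), did not pass a two-sided exact permutation test (p = 0.472). W+ replicate 1 (W+1) lay nearest to the W- libraries, and results are given with and without it.

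Some W- libraries were much alike. With all libraries thinned to 2938628 reads, the difference between the read counts of a pair was expressed as a chi-square per gene, which is 1 for sampling noise alone. It was 1.56 for W- replicates 7 and 10, 1.57 for replicates 6 and 9 and 1.74 for replicates 8 and 11. The other 52 pairs of W- libraries had 3.05 to 30.5 and the 10 pairs of W+ libraries 4.55 to 20.5, while pairs of S libraries reached down to 1.47. The 3 close W- pairs thus differed by more than sampling noise but by less than any other winter pair. The labels list them as separate samples and do not say whether any share an animal, so the number of W- animals may be below 11. Results are given with 11 W- libraries and, where they bear on a call, with each close pair counted as 1 sample (n = 8).

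In the deposited scaling, W+ testes had many genes at much higher levels than W- testes and others at moderately lower levels. Of 17981 tested genes, 4092 (22.8%) were up-regulated and 2932 (16.3%) down-regulated in W+ at an adjusted p under 0.05 and a more than 2-fold change (limma on log2(RPKM + 0.1), Benjamini-Hochberg adjustment over all tested genes). On this scale the up-regulated genes had a median log2 fold change of 2.08 with quartiles of 1.43 and 3.38. The down-regulated genes had a median of -1.32 with quartiles of -1.57 and -1.15. Among the up-regulated genes 1233 (30.1%) rose more than 8-fold and 369 more than 32-fold, whereas 33 of the down-regulated genes (1.13%) fell more than 8-fold. The high end of the range was thus populated by genes higher in W+ testes, as the plot of mean levels shows.

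**Figure D1:**
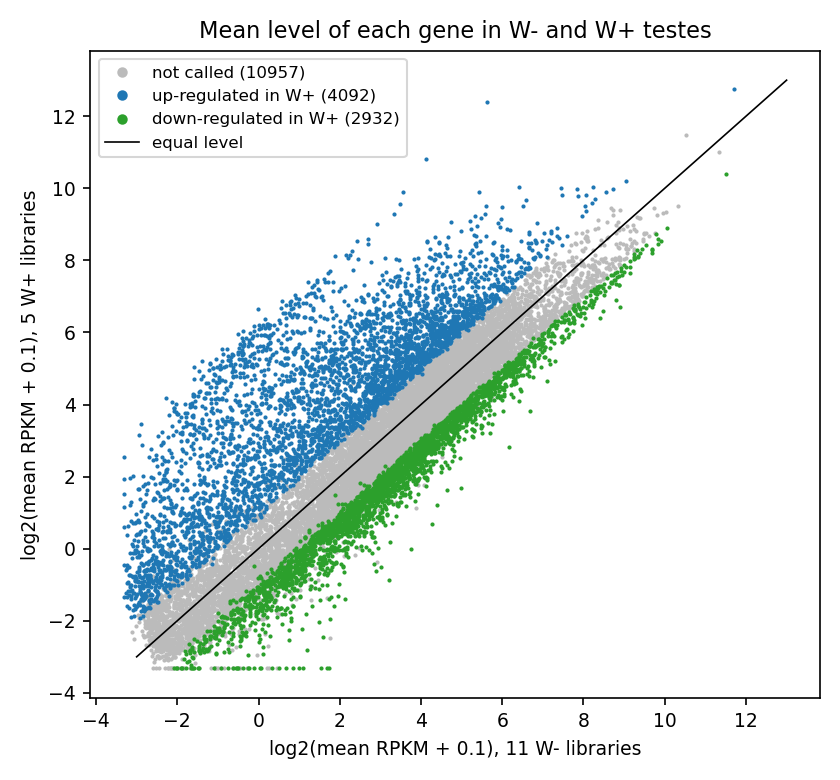
Mean level of each of the 17981 tested genes in 11 W- libraries (x axis) and 5 W+ libraries (y axis), both as log2(mean RPKM + 0.1), with the 4092 up-regulated genes in blue, the 2932 down-regulated genes in green and the 10957 genes that were not called in grey. Blue points reach far above the line of equal level, while most green points follow close below it, and the row of points along the lower edge holds genes without a read in W+ testes.

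The remaining 10957 genes were not called. For 5256 tested genes (29.2%) the whole 95% confidence interval of the difference lay within a 2-fold change in either direction. In all, 4428 genes passed the adjusted p but differed less than 2-fold, of which 1673 are among those 5256, and 373 genes differed more than 2-fold without passing it. The median log2 difference over all tested genes was -0.06.

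Most up-regulated genes separated both groups of animals completely. The 5 W+ values lay above all 11 W- values for 3791 tested genes (21.1%) and below all of them for 2003 (11.1%). Up-regulated genes account for 3277 of the former (80.1% of their list) and down-regulated genes for 1311 of the latter (44.7%). Genes called in either direction had passed a test on the same values, so these shares describe the called genes and do not test them.

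The split between directions depended on the scaling of the libraries. With the deposited scaling, by median-of-ratios size factors, 58.3% of the genes called were up-regulated. With quantile normalization the share was 41.7% (3277 up-regulated and 4590 down-regulated genes) and with scaling by total counted reads 39.5% (3216 and 4931 genes). These scalings moved the median gene by -0.28 and -0.36 on the log2 scale relative to the deposited one. All 2932 down-regulated genes kept their call under both, and no up-regulated gene became down-regulated. Both outcomes are largely fixed by the direction of these shifts, which lower W+ against W- levels and so tend to enlarge falls. They are no separate test of the calls. Of the 4092 up-regulated genes, 3277 kept their call under the first of these scalings and 3216 under the second. Which direction held more genes was therefore not settled by these data, whereas the longer range of the rises is a comparison of sizes in the deposited scale. Reads counted per unit of size factor, the ratio between both scalings, were 7.97e+06 ± 6.40e+05 (SD, n = 5) in W+ and 6.18e+06 ± 2.43e+05 (SD, n = 11) in W- libraries, with no overlap (two-sided exact permutation test, p = 0.000229, the smallest these group sizes allow). With the close pairs counted once p was 0.000777, the smallest that 5 against 8 samples can give in this exact permutation test.

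Without W+1 more genes were called in both directions. W+1 was left out as the W+ library nearest to W-, so larger differences and less overlap are partly fixed by that choice. Of 17841 genes that then passed the filter, 4246 (23.8%) were up-regulated and 3345 (18.7%) down-regulated. Of the genes called with all libraries, 3983 of the up-regulated ones (97.3%) and 2820 of the down-regulated ones (96.2%) were called again, and these made up 93.8% and 84.3% of the genes called without W+1. Among the called genes, the groups then did not overlap for 3681 up-regulated (86.7%) and 2247 down-regulated genes (67.2%). As above, these shares describe the called genes and do not test them. Up-regulated genes had a median log2 fold change of 2.14 and down-regulated genes one of -1.40.

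With each close pair of W- libraries counted once, 4077 genes were up-regulated and 3177 down-regulated of 17782 tested. Of the genes called with 11 W- libraries, 96.8% of the rises and 95.8% of the falls were among them. Without W+1 as well, the counts were 4201 and 3549.

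Rises and falls were found at all levels of expression. Of the 3301 genes with a mean under 1 RPKM over the 16 winter libraries, 21.4% were up-regulated and 10.7% down-regulated. Among the 6254 genes from 1 to 10 RPKM these shares were 21.4% and 22.0%, and among the 7563 genes from 10 to 100 RPKM 24.9% and 13.7%. Of the 863 genes at 100 RPKM or more, 19.1% were up-regulated and 18.9% down-regulated. The up-regulated genes had median log2 fold changes of 1.84, 2.37, 2.08 and 2.10 from the lowest to the highest class. In the same order, 80 of 707, 495 of 1339, 605 of 1881 and 53 of 165 rose more than 8-fold. The lowest class thus had fewer large rises, and the pseudocount of 0.1 shrinks the changes of the lowest genes. The down-regulated genes had medians between -1.36 and -1.24 in all 4 classes.

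Transcripts of the up-regulated genes were reduced in W- testes and seldom absent. The W- mean was a median of 20.5% of the W+ mean. For 1152 of the 4092 genes it lay between 1% and 10%, and for 43 genes under 1%. Every W- library held at least 1 read for 3023 of these genes, and only 7 had no read in any W- library. Even so, 274 up-regulated genes had a mean of at least 10 RPKM in W+ and under 1 RPKM in W- testes, whereas 1 down-regulated gene showed the reverse. For the down-regulated genes the W+ mean was a median of 38.2% of the W- mean, and 34 of them had no read in any W+ library. The fitted changes of genes without a read depend on the pseudocount, and with these genes set at the bound that 3 reads over the group allow, the median log2 fold changes were 2.08 for the up-regulated and -1.31 for the down-regulated genes.

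Very few genes were read in every library of one group and in no library of the other. Genes read in only some libraries of one group are not counted here. Counting all genes with reads, 9 had a read in every W+ library and none among the 81959364 reads of the W- libraries, where a count of 0 allows up to 3 reads. Their highest mean was 5.75 RPKM in W+ testes, and 5 of them had reads in every S library. Another 3 genes had a read in every W- library and none among the 33426192 reads of the W+ libraries, again with up to 3 reads allowed, and their highest mean was 0.229 RPKM. The fewer reads of the W+ group make an absence there the weaker statement.

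Genes with the largest rises tended to be short. Exon length, recovered with the reads, had a median of 1776 bp over all tested genes, 1732 bp among up-regulated and 1668 bp among down-regulated genes. The 1233 genes that rose more than 8-fold had a median of 1313 bp. When all tested genes were divided by length into 5 classes of like size, such genes made up 8.81% of the shortest class, 10.1% of the next, then 6.75% and 5.01%, and 3.62% of the longest class. The shares of all up-regulated genes in these classes were 19.7%, 26.5%, 24.1%, 22.8% and 20.7%. Length enters an RPKM as a divisor that is the same in every library and so leaves a fold change as it is, apart from the pseudocount.

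The lists of the most abundant transcripts overlapped in part between both testis states. Of the 100 genes with the highest mean RPKM in W+ and the 100 with the highest mean in W- testes, 32 were the same, and 28 without W+1. The W+ list held 55 up-regulated and 3 down-regulated genes, and 42 that were not called. The W- list held 37 down-regulated and 2 up-regulated genes, and 61 that were not called. Each list was ranked on the mean of its own group, which favours genes high in that group. Among the top 1000 of each group 552 genes were shared.

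Reads were also concentrated on fewer transcripts in W+ testes. In each library, the 100 genes with the most reads took 12.2% ± 0.638 of the reads in W+ (SD, n = 5) and 11.2% ± 0.523 in W- testes (SD, n = 11), a difference of 0.921 percentage points (two-sided exact permutation test, p = 0.0103). The single W+ values were 11.0% for W+1 and 12.5%, 12.4%, 12.4% and 12.5% for W+ replicates 2 to 5, and the W- libraries ran from 10.5% to 12.3% with a median of 11.1%. Only W+1 lay within the W- range. Without it the difference was 1.21 percentage points (p = 0.000733, exact permutation test of 4 against 11 libraries), and the groups did not overlap, as removing the only overlapping library brings about. With thinned reads the groups overlapped even without W+1, since W+ replicate 3 and W- replicate 1 both had 12.4% (p = 0.00147, exact permutation test). With all W+ libraries and each close W- pair counted once, the difference was 0.852 percentage points (p = 0.0373, exact permutation test, n = 5 and 8).

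The number of genes with at least 1 read was 17744 ± 195 in W+ (SD, n = 5) and 17534 ± 394 in W- libraries (SD, n = 11), and the difference of 210.5 genes did not pass the test (two-sided exact permutation test, p = 0.300). W- replicate 5, the shallowest library, had the fewest genes, at 16518, and without it the difference was 108.9 genes (p = 0.359, exact permutation test). Asking for 10 reads turned its direction, to -31.9 genes (p = 0.917, exact permutation test). With every library thinned at random to the 2938628 reads of this library, W+ testes had 16904 ± 63.1 and W- testes 16659 ± 115.5 genes, a difference of 244.4 that passed the test (p = 0.00114, exact permutation, n = 5 and 11), also with each close W- pair counted once (226.6 genes, p = 0.00699, exact permutation, n = 5 and 8). A difference was thus found for genes read at least once at equal depth, and genes with 10 reads were not counted at that depth. The random thinning was drawn once. Both sets of counts overlapped between the groups. Only W- replicate 4, at 16911 genes, reached into the W+ range of 16810 to 16963 after thinning.

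The share of all reads that fell on the called genes describes these selected genes and not the RNA of the testis as a whole. Genes up-regulated in W+ took 31.9% of the reads in W+1 and 43.3%, 46.6%, 45.5% and 45.6% in W+ replicates 2 to 5. In the W- libraries they took between 10.4% and 14.9%, with a median of 13.6%. Down-regulated genes took 10.0% of the reads in W+1, 5.12%, 5.18%, 4.70% and 4.80% in W+ replicates 2 to 5, and between 16.2% and 23.1% in W- libraries, with a median of 17.0%. The groups did not overlap in either share, W+1 was the W+ library nearest to W- in both, and since the genes were called on these libraries no test was made. The 95% Wilson intervals of these shares are at most 0.0983 percentage points wide, and they cover counting error only.

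The S libraries took no part in the calls. In them the genes up-regulated in W+ took between 50.6% and 56.0% of the reads, with a median of 53.9%, and the down-regulated genes between 2.68% and 4.62%, with a median of 3.28%. Every S library thus lay beyond every W+ library in both shares. The 1233 genes that rose more than 8-fold took between 8.19% and 15.9% of the reads in W+, between 0.404% and 1.89% in W- and between 18.2% and 21.8% in S libraries.

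**Figure D2:**
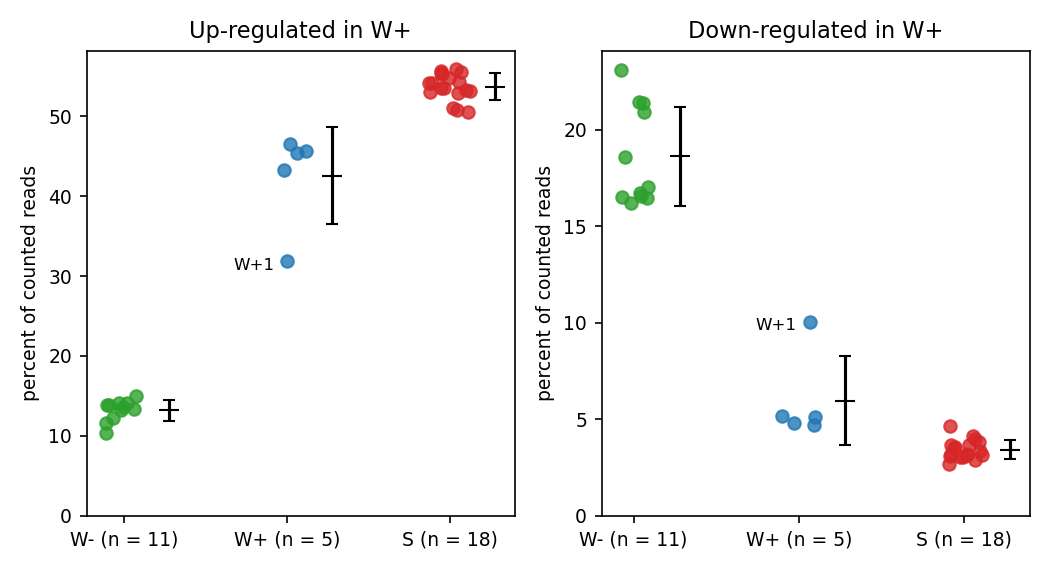
Percent of the counted reads of each library that fell on the genes up-regulated (left) and down-regulated (right) in W+ against W- testes, with 1 point per library and, beside the points, the mean with its SD for 11 W- (green), 5 W+ (blue) and 18 S (red) libraries. W+1, at 31.9% and 10.0%, lies between the W- libraries and the other W+ libraries, and S libraries lie beyond W+ in both panels.

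Within W- males the share of the down-regulated genes fell into 2 ranges. W- replicates 1 to 5 had 18.6% to 23.1% and W- replicates 6 to 11 had 16.2% to 17.0%. The lower range is made up of the 3 close pairs and may rest on fewer animals than libraries. Replicates 1 to 4 were also the W- libraries with the most reads, at 9004889 to 9653984, but replicate 5 had the fewest, at 2938628. The part of depth in this difference was not tested. With the 4 deepest W- libraries left out, 4076 genes were up-regulated and 2614 down-regulated in W+.

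Each winter library was then given a position between the W- mean (0) and the W+ mean (1), with the genes called and both means computed without that library, so that its own values had no part in the choice. The position of a library is the median over the called genes of the place of its log2 level between both means. Over up-regulated genes W+1 lay at 0.706, and W+ replicates 2 to 5 at 0.996, 1.12, 1.09 and 1.09. The W+ mean and the genes used for replicates 2 to 5 include W+1, which moves that mean toward W- and tends to raise their positions. The W- libraries ran from -0.210 to 0.180, with a median of 0.0168. Each W+ library lay nearer to the W+ mean than every W- library did, and W+1 was the lowest W+ library.

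Over down-regulated genes W+1 stood about midway, at 0.486, while W+ replicates 2 to 5 were at 1.00, 1.01, 1.12 and 1.09. The W- libraries ran from -0.261 to 0.194, with a median of 0.126. Again no W- library reached a W+ library. When both libraries of a close pair were left out together, W- replicates 6 to 11 had positions of -0.0543 to 0.0302 over up-regulated and 0.174 to 0.227 over down-regulated genes. Left out singly, W- replicates 1 to 5 had positions from -0.261 to -0.0249 over down-regulated genes, and W- replicates 6 to 11 from 0.126 to 0.194. This is the same order as in the share of reads, over largely the same genes and libraries.

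**Figure D3:**
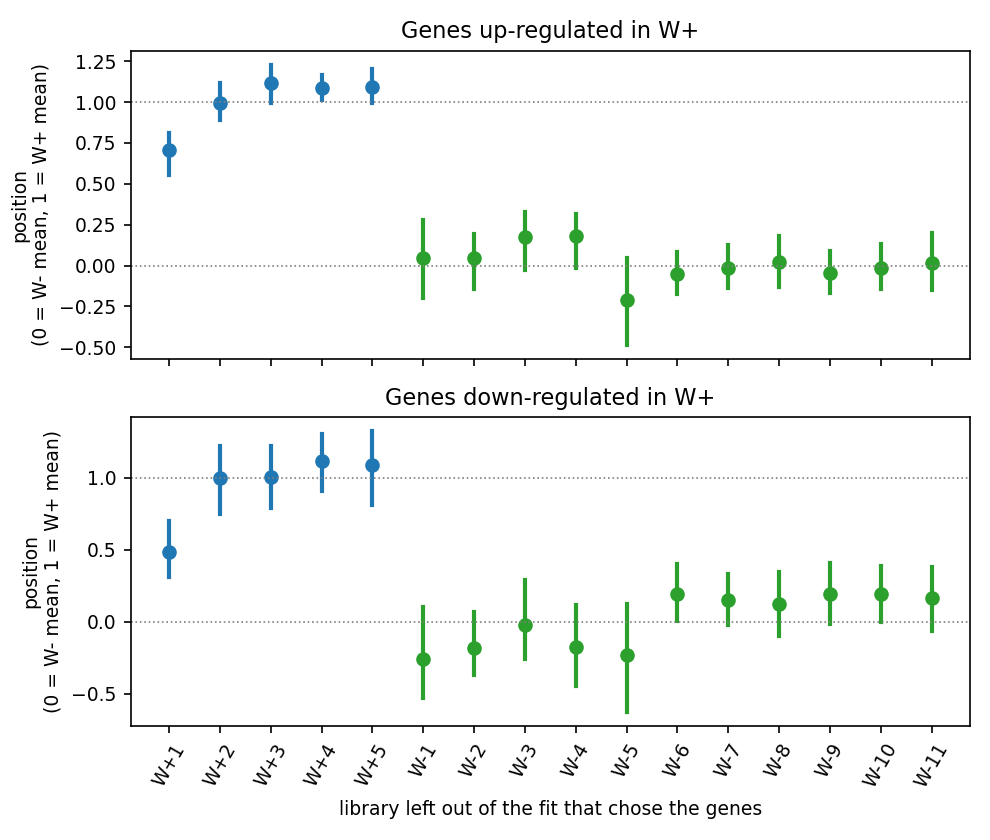
Position of each left-out winter library (x axis) between the W- mean (0) and the mean of the W+ libraries (1) over genes up-regulated (top) and down-regulated (bottom) in W+ in a fit without that library, with points for the median over genes and bars from the lower to the upper quartile. W+1, at 0.706 and 0.486, is the only W+ library far from 1, and all W- libraries lie between -0.261 and 0.194. For the other W+ libraries the W+ mean includes W+1, which tends to raise their positions.

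Gene by gene, W+1 lay nearer to W- more often among the genes with lower levels in W+ testes. Its median distance from the other W+ libraries was similar, at 0.76 log2 units below for the rises and 0.71 above for the smaller falls. Of the 4246 genes up-regulated without it, W+1 was nearer to the W+ mean for 80.6%, against 95.6% to 97.0% for the other W+ libraries. Of the 3345 down-regulated genes it was nearer to the W+ mean for 48.5%, against 89.6% to 93.0% for the others. As above, the mean and genes used for the others include W+1. The value of W+1 fell within the W- range for 17.3% of genes with a rise and 48.8% of genes with a fall. For the other W+ libraries these shares were 4.93% to 7.05% and 15.6% to 21.5%.

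The place of W+1 also varied with the size of the change. Among up-regulated genes, its median position was 0.620 for genes changed by 1 to 2 on the log2 scale, 0.672 for 2 to 3, 0.750 for 3 to 5 and 0.812 for over 5. Its level in these 4 classes was a median of 0.54, 0.80, 0.97 and 1.23 log2 units below the mean of the other W+ libraries. Among down-regulated genes the positions were 0.495, 0.453 and 0.323 for changes of 1 to 2, 2 to 3 and 3 to 5, and the level lay 0.68, 1.25 and 2.30 log2 units above the others. The distance of W+1 from the other W+ libraries in log2 units was larger in the classes of larger change in both directions. Classes and distance both use the mean of W+ replicates 2 to 5, so such a growth is partly built into the sorting. Relative to the size of the change, the distance shrank for rises and grew for falls, and it shares the same mean. The last class of down-regulated genes held 56 genes, with quartiles of the position at 0.01 and 0.66.

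**Figure D4:**
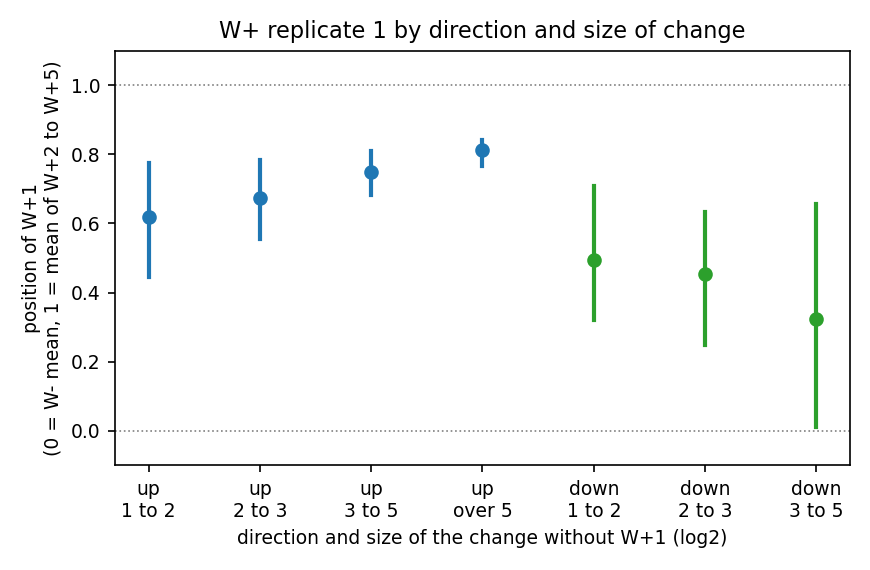
Median position (points) and quartiles (bars) of W+1 between the W- mean (0) and the mean of W+ replicates 2 to 5 (1), by direction and size of the log2 fold change in the fit without W+1. The position goes from 0.620 to 0.812 with the size of a rise and from 0.495 to 0.323 with the size of a fall.

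The spread among males was described for each group and not tested. The median SD of log2 levels over all tested genes was 0.39 in W+ and 0.47 in W- testes, and 0.30 in W+ without W+1. The SD was larger in W- for 61.9% of genes with W+1 and for 72.5% without it. The groups differ in size, so these shares are no test of a difference in spread. W+1 was left out as the W+ library nearest to W-, so a smaller W+ spread without it is partly fixed by that choice. In S males the median SD was 0.31, and in W- males 0.47 also with the close pairs counted once. Over the up-regulated genes the W- spread was 0.57 and the W+ spread 0.48, or 0.30 without W+1. Over the down-regulated genes the W- spread was 0.51 and the W+ spread 0.49, or 0.36 without W+1. For these genes the spread was larger in W- for 49.6%, or for 71.0% without W+1.

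The 2 largest rises and 2 largest falls that met a rule are given by identifier. All 4 were also called with each close W- pair counted once, with log2 fold changes of 8.26 and 8.31 for the rises and -3.50 and -3.08 for the falls in the order of description. The rule asked for a call, for a group mean that reached 5 RPKM in W+ or W- testes, and for values that did not overlap between both. Larger called falls, down to a log2 fold change of -5.12, did not meet it. ENSMOCG00000015118 (exon length 306 bp) reached 721, 1719, 2481, 1858 and 2274 RPKM in W+ replicates 1 to 5. In W- testes it ran from 0 to 102 RPKM with a median of 2.37. W+1 was the lowest of the W+ libraries but lay far above the highest W- library, W- replicate 1. In 3 W- libraries no read was counted, which allows up to 3 reads in each.

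Its log2 fold change was 9.58 (standard error 1.45, adjusted p = 1.93e-05 from limma) and 9.89 without W+1 (adjusted p = 5.09e-05 from limma). The 18343 reads of the W+ libraries compare with 697 in W- libraries. S testes had 5762 ± 928 RPKM (SD, n = 18), and all S values, from 4592 to 8296, lay above all W+ values. The difference between W+ and S was not called (log2 fold change -1.77, adjusted p = 0.179 from limma over all 34 libraries, whose shared spread holds the variation among W- males).

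ENSMOCG00000021303 (394 bp) had the groups in the same order at a higher level. It had 1531, 5348, 9233, 5729 and 5281 RPKM in W+ replicates 1 to 5, from 0.221 to 307 RPKM in W- testes with a median of 6.25, and 16282 ± 2383 RPKM (SD, n = 18) in S testes. No group overlapped another, W+1 was again the lowest W+ library and W- replicate 1 the highest W- library. The log2 fold change was 9.47 (standard error 1.37, adjusted p = 1.18e-05 from limma) and 9.88 without W+1 (adjusted p = 2.67e-05 from limma). W+ and S testes did not pass the test (log2 fold change -1.78, adjusted p = 0.151 from limma over all 34 libraries).

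W- replicates 1, 2 and 4 held most of the W- reads of both genes. For ENSMOCG00000015118 these 3 libraries had 365, 98 and 207 reads, while each of the other W- libraries had between 0 and 11. For ENSMOCG00000021303 they had 1409, 417 and 572 reads against 1 to 48. On the log scale the W- libraries thus spanned a wider range of both transcripts than the W+ libraries did.

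ENSMOCG00000020390 (1834 bp) was the largest fall by this rule. It had 10.5, 6.64, 11.0, 4.61 and 1.97 RPKM in W+ replicates 1 to 5, and from 16.9 to 162 RPKM in W- testes with a median of 48.9. W+1 was not apart from the other W+ libraries here, lying below W+ replicate 3. W- replicates 1 to 5, at 89.0 to 162 RPKM, lay above W- replicates 6 to 11, at 16.9 to 48.9 RPKM. This repeats the order in the share of down-regulated genes, to which this gene belongs, and is no separate evidence.

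Its log2 fold change was -3.11 (standard error 0.59, adjusted p = 0.000185 from limma) and -3.31 without W+1 (adjusted p = 0.000272 from limma). S testes had 1.76 ± 0.503 RPKM (SD, n = 18) and overlapped with W+ testes only at W+ replicate 5, and the difference between W+ and S was called (log2 fold change 1.74, adjusted p = 0.00224 from limma).

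ENSMOCG00000010815 rests on few reads. Its recovered exon length is 71 bp, and it had 5, 3, 2, 1 and 0 reads in W+ replicates 1 to 5, or 3.88 ± 2.89 RPKM (SD, n = 5). The W- libraries had 5 to 27 reads each and 16.9 ± 7.17 RPKM (SD, n = 11). The RPKM values did not overlap, with 6.64 as the highest in W+ and 7.88 as the lowest in W- testes, but both of these values stand for 5 reads. The log2 fold change was -2.91 (standard error 0.70, adjusted p = 0.00156 from limma). It was -1.82 without W+ replicate 5, the library with no read. W+ and S testes did not pass the test (log2 fold change 0.05, adjusted p = 0.974 from limma).

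**Figure D5:**
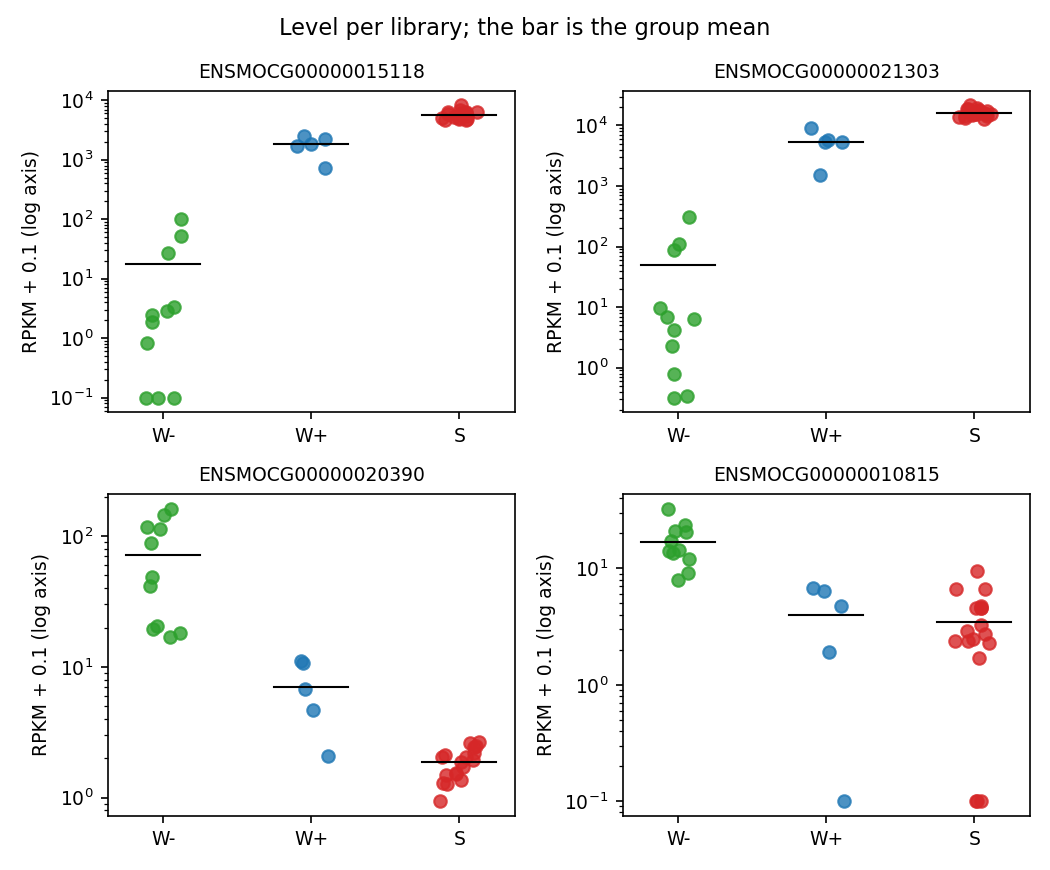
Level in each library of the 2 largest rises (top) and 2 largest falls (bottom) that met the rule of the text. Values are RPKM + 0.1 on a log axis, with 1 point per library and a bar at the group mean. Colours are green for W- (n = 11), blue for W+ (n = 5) and red for S (n = 18). W+ and W- points do not overlap in any panel, and the W- points of ENSMOCG00000015118 run from 0 to 102 RPKM.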

How the data were processed

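Single-end reads of poly(A) RNA from the testes of wild ATS males were trimmed by the authors with Trim Galore 0.6.10 (quality checked with FastQC 0.12.1), aligned with HISAT2 to MicOch1 and counted per gene with HTSeq. The authors deposited RPKM values computed during their DESeq2 normalization, and no other measurement was used. For the annotation release and the strand setting, not given in the sources used here, no assumption was made, so that overlapping, antisense and near-identical genes cannot be told apart.

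Whole reads were recovered from the deposited RPKM for 100% of the 20821 genes above 0, and the library sizes behind them were proportional to median-of-ratios size factors. All pairs of winter libraries within a group differed by more than sampling noise, but 3 W- pairs stood close to it (under 3 chi-square per gene of counted reads) and were counted once in an alternative. Genes at 0.1 RPKM or more in at least 5 of the 16 winter libraries were tested with limma 3.58.1 (R 4.3.3) on log2(RPKM + 0.1) with a trend, over winter libraries alone and without covariates, and fold changes on this scale understate the change of low genes. Values per library were compared by two-sided exact permutation tests over all 4368 divisions of 16 libraries into 5 and 11 (Python 3.11.15). The scripts were checked on simulated data.

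The comparison, its groups and its lists were chosen with earlier results of these data known. The study's histology and RNA come from the same animals, and its text does not say that groups were set before the RNA was seen. Gene lists, cell type markers and sequences were not used because 0 identifiers matched a symbol, and the 4 identifiers given are those with the 2 largest rises and falls among called genes at 5 RPKM or more in a winter group without overlap. Alternatives covered the pseudocount, the filter, the scaling, the fit, the thresholds, a replicate block and each library left out. Same-numbered W+ and W- libraries are not stated to belong together, and their deviations from the group means correlated between -0.18 and 0.16, so they were not treated as pairs.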

Additional observations from a re-analysis of the deposited data

Results flagged for a closer look

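A search for single W+ values distant from the remaining 4 covered 16 measures, and W+1 was such a value in 8 of them, whereas no other W+ library was. Chance singles out about 1 in 20 such groups of values, but this rate is no measure of the pattern: W+1 was known beforehand as the W+ library nearest to W-, and 5 of the 8 measures describe that nearness. In each of the 8 measures, the gap between W+1 and its nearest neighbour was more than 0.71 of the range of the group, the limit for 5 values.

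The 100 most counted genes held 11.0% of the reads of W+1 and the 1000 most counted genes 41.0%. Its counted reads per unit of size factor were 6.84e+06. Genes up-regulated in W+ took 31.9% of its reads and down-regulated genes 10.0%. Its position between the W- mean and the W+ mean was 0.486 over down-regulated genes, and the W+1 value lay within the W- range for 17.3% of genes with a rise and 48.8% of genes with a fall. In the other 8 measures no library passed the limit, and no W- measure was examined because the group holds 11 libraries.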

How the results depend on the processing

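The up-regulated genes (4092) stayed within 1.5 times under 32 of 33 alternatives and the down-regulated genes (2932) under 28 of 33. With a log2 fold change beyond 2 there were 2131 up-regulated and 236 down-regulated genes. The down-regulated genes numbered 1759 with a pseudocount of 1, 4590 with quantile normalization, 4931 with scaling by total counted reads and 5624 without a fold change threshold. Leaving out each library in turn gave 3913 to 4246 up-regulated and 2619 to 3345 down-regulated genes. Limma with voom on the recovered reads gave 4193 and 2719 genes, and the fit over all 34 libraries 4109 and 2963.

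With a replicate block, the counts were 4186 and 3562, and the same-numbered libraries shared only a number. In 1 of 5 cases a W+ library correlated best with the W- library of its own number. Against the 4 deepest W- libraries alone, 4192 and 3501 genes were called. This setting, the fit without these libraries and the close W- pairs counted once were added once the data had been seen. The number of genes per library differed by 244.4 with thinned reads (p = 0.00114, exact permutation test, 5 against 11) and by -31.9 when 10 reads were asked for (p = 0.917, exact permutation test), and by 108.9 to 260.6 with each library left out. The share of the 100 most counted genes kept its direction and its call under all 19 alternatives. The 4 identifiers kept theirs under all 30 alternatives, with log2 fold changes of 6.04 to 11.61 for ENSMOCG00000015118, 6.00 to 11.46 for ENSMOCG00000021303, -4.38 to -2.38 for ENSMOCG00000020390 and -3.50 to -1.82 for ENSMOCG00000010815. The causes of these shifts were not tested. Depth limits genes with few reads: in W- replicate 5, 1 read on a gene of median length was worth 0.152 RPKM.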
